A study of Mus musculus with 4 samples.

Results

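The peaks described here are those that lie wholly inside introns in 2 immunoprecipitation libraries of the RNA-binding protein IGF2BP2. A peak was counted as one when the authors' region field gave intron for its whole length, which held for 4043 of 15511 peaks in IGF2BP2_IP replicate 1 and 6066 of 22570 peaks in IGF2BP2_IP replicate 2, or 10109 of 38081 in all. The cells were mouse bone-marrow-derived macrophages (BMDMs), and the study set the immunoprecipitates against input RNA. There were 2 IGF2BP2_IP libraries and 2 IGF2BP2_input libraries; the inputs were not analysed here. No treatment, genotype, strain or age was given for any group, and whether the 2 replicates are separate cultures is not stated, so differences between them may be technical. The antibody is named as one against IGF2BP2 in the sample characteristics and as a monoclonal against the Flag tag in the protocol.

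IGF2BP2 binds many mRNAs, reads the methyl mark m6A on adenosines, and is known mainly for stabilising mature transcripts in the cytoplasm. Introns are transcribed with the gene and removed from the nascent RNA in the nucleus, so RNA from inside an intron can come from unspliced transcripts, from retained introns, or from stable small RNAs cut out of introns. The box H/ACA small nucleolar RNAs (snoRNAs), which guide pseudouridylation and end in an ACA box, are of the last kind, as are many microRNAs.

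A few of the intron-only peaks lay exactly on snoRNAs, and their sequences show what such a peak holds. Members touched 29 snoRNA or scaRNA genes (scaRNAs are the Cajal body relatives of snoRNAs) in replicate 1 and 32 in replicate 2, of 1558 annotated, and 19 of them in both. In 10 of the 19, both ends of the peak lay within 20 nt of the ends of the snoRNA in both libraries. Of these 10, 6 are printed, taken in order of their tags; they are GENCODE release 21 transcripts on GRCm38, written 5′ to 3′, with an ACA that stands 3 nt before the 3′ end in capitals.

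Snora23 (Ipo7 host, chr7:110046364-110046547, plus strand): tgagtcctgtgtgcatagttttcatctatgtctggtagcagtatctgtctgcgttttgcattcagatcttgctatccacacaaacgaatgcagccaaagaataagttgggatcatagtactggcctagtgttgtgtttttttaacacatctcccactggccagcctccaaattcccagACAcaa
Snora24 (Snhg8 host, chr3:123507937-123508066, minus strand): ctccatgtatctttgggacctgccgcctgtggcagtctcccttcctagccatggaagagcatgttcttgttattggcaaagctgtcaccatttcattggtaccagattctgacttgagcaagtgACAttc
Gm22422 (Trmt10c host, chr16:56035753-56035887, minus strand): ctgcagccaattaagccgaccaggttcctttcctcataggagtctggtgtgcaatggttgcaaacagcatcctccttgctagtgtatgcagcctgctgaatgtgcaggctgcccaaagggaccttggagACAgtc
Snora33 (Rps12 host, chr10:23785347-23785475, minus strand): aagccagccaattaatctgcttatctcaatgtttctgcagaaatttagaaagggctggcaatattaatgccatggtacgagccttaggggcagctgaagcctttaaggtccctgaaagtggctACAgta
Gm26079 (Ep400 host, chr5:110692049-110692181, minus strand): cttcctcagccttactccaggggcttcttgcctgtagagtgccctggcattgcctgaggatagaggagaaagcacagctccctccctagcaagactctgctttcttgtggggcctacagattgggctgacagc
Gm25776 (Gtf2a1 host, chr12:91573430-91573572, minus strand): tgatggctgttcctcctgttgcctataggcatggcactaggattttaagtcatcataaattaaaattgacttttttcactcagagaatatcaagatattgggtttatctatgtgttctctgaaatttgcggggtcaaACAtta

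The Snora24 peak had the same ends in both libraries, 123507940 and 123508058 on chromosome 3, with 35 tags in replicate 1 and 34 in replicate 2. Snora23, in an intron of the importin gene Ipo7, had 66 and 58 tags. Gm22422, in Trmt10c, had 23 and 42, and Snora33, in the ribosomal protein gene Rps12, 14 and 18. The 6 were picked from those with a peak in both libraries, so their recurrence is no result. Of the 6 sequences, 5 carried the ACA. Gm26079, in Ep400, with 9 and 12 tags, did not have it at that distance. The remaining one, Gm25776 in Gtf2a1, had 10 tags in each library. The strongest such peak lay on Snora74a, with 68 and 84 tags; its sequence is not printed.

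Members on snoRNA or scaRNA genes were short and recurred. Their median length was 120 nt in each library, against 240 and 265 nt for the other intron-only peaks. In replicate 1, 21 of 28 (75%, exact binomial 95% interval 55.1 to 89.3) overlapped a peak of replicate 2, against 17.1% of the other 4015 members. In replicate 2, 19 of 32 (59.4%, 40.6 to 76.3) overlapped a peak of replicate 1, against 10.7% of the other 6034. These shares are not matched for tags. Members on snoRNA or scaRNA genes had a median of 10 tags in each library, against 6 and 8 for all intron-only peaks. Of all intron-only peaks with 10 to 19 tags, 33.2% in replicate 1 and 13.8% in replicate 2 overlapped a peak of the other library. The split by small RNA genes was made after the peaks had been seen, and no test was run on it.

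Members touched 3 microRNA genes in replicate 1 and 6 in replicate 2, and some of these shared a peak with another small RNA. Gm49347 was touched in both libraries by the peak on Snora74a, and Mir1291 in replicate 1 by the peak on Snora34. Mir342 was touched in replicate 2 at its last bases alone. In 2010111I01Rik, the host gene of miR-23b and miR-27b, a replicate 1 peak of 23 tags and a replicate 2 peak of 45 tags covered the Mir27b hairpin, and the replicate 2 peak also covered Mir23b. The mature sequences from RefSeq on GRCm38.p6 are given with the seed, bases 2 to 8, in capitals.

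mmu-miR-27b-5p: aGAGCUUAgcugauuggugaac
mmu-miR-27b-3p: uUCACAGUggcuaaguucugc
mmu-miR-23b-5p: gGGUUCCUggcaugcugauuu

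Both peaks were far longer than the hairpin, at chr13:63300653-63301199 in replicate 1 and chr13:63300033-63300909 in replicate 2, so they hold host intron as well as the microRNA.

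The larger group of recurrent members, away from small RNA genes, is shown by 6 peak pairs. They are among the highest-ranked pairs whose sequence could be read from an annotated retained-intron transcript of GENCODE release 21; each is 120 nt centred midway between the summits of the 2 peaks, with any GGAC, the core of the m6A consensus, in capitals.

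Cblb (chr16:52048648-52048767, plus strand): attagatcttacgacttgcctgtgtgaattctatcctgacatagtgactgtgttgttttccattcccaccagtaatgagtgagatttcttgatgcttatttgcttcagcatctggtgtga
Nfkb1 (chr3:135611325-135611444, minus strand): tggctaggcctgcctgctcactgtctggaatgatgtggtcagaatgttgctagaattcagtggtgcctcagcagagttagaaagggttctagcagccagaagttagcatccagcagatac
Slc27a1 (chr8:71581880-71581999, plus strand): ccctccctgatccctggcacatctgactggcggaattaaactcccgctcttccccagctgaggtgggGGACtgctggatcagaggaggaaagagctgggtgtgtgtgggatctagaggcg
Tbxas1 (chr6:39028103-39028222, plus strand): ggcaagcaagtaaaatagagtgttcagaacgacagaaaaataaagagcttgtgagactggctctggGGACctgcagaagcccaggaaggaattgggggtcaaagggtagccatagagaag
Pfkp (chr13:6589548-6589667, minus strand): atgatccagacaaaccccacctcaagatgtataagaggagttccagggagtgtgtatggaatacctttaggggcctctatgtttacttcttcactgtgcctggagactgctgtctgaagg
Ankrd11 (chr8:122900873-122900992, minus strand): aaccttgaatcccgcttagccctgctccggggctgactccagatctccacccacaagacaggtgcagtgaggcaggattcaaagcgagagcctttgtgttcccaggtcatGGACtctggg

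Of the 6 windows, Slc27a1, Tbxas1 and Ankrd11 held 1 GGAC each, and each of these windows holds the summits of both peaks. Those of Cblb, Nfkb1 and Pfkp held no GGAC, but their summits lie farther apart and outside the window, so this says nothing of the sequence at a summit. The Cblb peaks had 63 and 98 tags in replicates 1 and 2, and those of Nfkb1, a subunit gene of NF-kappa-B, 14 and 31. Slc27a1, a fatty acid transporter gene, had 22 and 19, and Tbxas1, the thromboxane synthase gene, 21 and 19. Pfkp, a phosphofructokinase gene, had 9 and 21, and Ankrd11 12 and 14. The pairs thus span from few to many tags in both libraries.

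The intron label held for most members when set against the reference. Of the members whose named gene is in GENCODE, 94.1% of 4019 in replicate 1 and 93.8% of 6038 in replicate 2 had no base in any exon of that gene, and all lay on the gene's strand. An exon of a transcript annotated as a retained intron was touched by 140 (3.48%) and 226 (3.74%), and an exon of a protein-coding transcript by 41 and 58. With exons of all genes on the strand counted, 90.4% and 89.6% were free of exons. Some members therefore lie in introns of the gene the authors named but in exons of another: 145 (3.61%) and 251 (4.16%).

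Part of that overlap came from a few very long gene models. Gm20388, a gene model with 4431 kb of intron, was the name given to 41 members in replicate 1 and 80 in replicate 2, and 41 and 78 of these lay inside another protein-coding gene on the strand. Those genes included Galnt2 (5 and 20 members), Tcf25 (9 and 14), Gse1 (6 and 11) and the macrophage transcription factor gene Irf8 (7 and 9). All 22 and all 63 members named Fgfr2 lay inside other genes, mainly Ctbp2 (9 and 39) and Fam53b (9 and 18). All 4 and 4 members named Epo lay in Gnb2, and the 4 members named Cx3cr1, found in replicate 2, lay in Csrnp1. The authors' gene name is thus no evidence that these genes, of which Epo and Fgfr2 are the best known, gave the RNA. In all, 194 members (4.8%) of replicate 1 and 361 (5.95%) of replicate 2 lay inside another protein-coding gene.

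In replicate 1, 26.1% of the peaks were intron-only (25.4 to 26.8), and in replicate 2, 26.9% were (26.3 to 27.5). The difference did not pass Fisher's exact test (odds ratio of replicate 2 over replicate 1 1.04, two-sided p = 0.0785). They held 20% of the tags in replicate 1, 37967 of 189393, and 23.3% in replicate 2, 75584 of 324456; a tag is the authors' unit of counting, taken here as a sequenced read or fragment. Of the peaks with at least 10 tags, 21.8% and 24.6% were intron-only. Peaks wholly in coding sequence, the comparison class here, numbered 4483 (28.9%) and 5901 (26.1%). The number of reads in each library is unknown, so these shares are of called peaks, and intervals and tests on peaks cover counting error only.

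Intron-only peaks had fewer tags at the median than coding-sequence peaks and were longer. Those with 3 to 5 tags made up 36.3% in replicate 1 and 25.7% in replicate 2, against 25.2% and 17% of coding-sequence peaks. Those with 50 or more tags made up 1.11% and 2.72%, against 0.937% and 1.32%. The median was 6 tags in replicate 1 and 8 in replicate 2 for intron-only peaks, against 8 and 9 for coding-sequence peaks, and the median maximum height was 6 and 7 against 7 and 8. The median length was 239 and 265 nt, against 121 and 124 nt. Tags were spread thinly, at a median of 27.4 and 30 per kb against 64.9 and 72.3. At the strong end, the 45 and 165 intron-only peaks with 50 or more tags had a median length of 1044 and 1156 nt. The coding-sequence peaks of that class numbered 42 and 78, with a median length of 198 and 179 nt. Peaks of 1000 nt or longer made up 0.866% and 2.24% of intron-only peaks, against 0.156% and 0.203% of coding-sequence peaks.

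Intron-only peaks recurred between the libraries less often than coding-sequence peaks. In replicate 1, 707 of 4043 (17.5%, 16.3 to 18.7) overlapped a replicate 2 peak by at least 1 base on the same strand, against 2010 of 4483 coding-sequence peaks (44.8%); over all peaks the share was 34.8%. In replicate 2, 667 of 6066 (11%, 10.2 to 11.8) overlapped a replicate 1 peak, against 1705 of 5901 (28.9%); over all peaks the share was 23.6%. The odds ratio was 0.261 in replicate 1 (Fisher's exact test, two-sided, adjusted p = 2.22e-165) and 0.304 in replicate 2 (adjusted p = 1.34e-135), with Benjamini-Hochberg adjustment over 12 tests. Peaks are not replicates of a condition, and the tests compare these 2 lists.

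The difference was present at equal tag numbers. Among replicate 1 peaks with 6 to 9 tags, 12% of intron-only and 42.1% of coding-sequence peaks recurred, and with 20 to 49 tags 59.9% and 81%. Among replicate 2 peaks the shares were 5.11% and 18.8% with 6 to 9 tags, and 30.8% and 65.3% with 20 to 49 tags. With 50 or more tags the shares were 71.1% and 81% in replicate 1 (odds ratio 0.579, Fisher's exact adjusted p = 0.324) and 58.8% and 80.8% in replicate 2 (odds ratio 0.34, Fisher's exact adjusted p = 0.000875). Recurrence thus climbed with the tag number in both classes, and the strongest class of replicate 1 was the one that did not pass.

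**Figure D1:**
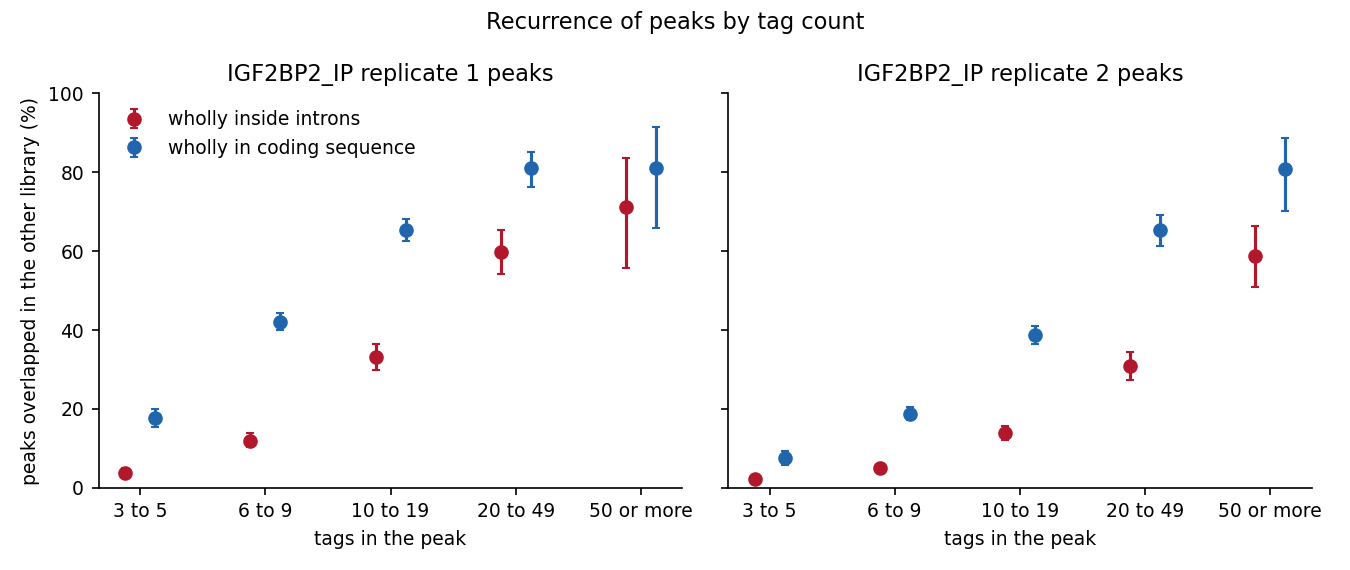
Share of peaks (percent, y axis) overlapped on the same strand by a peak of the other library, by tags in the peak (x axis), for peaks wholly inside introns and peaks wholly in coding sequence of each IGF2BP2_IP library; bars are exact binomial 95% intervals. The intron-only points lie below the coding-sequence points in each class, from 3.88% against 17.6% with 3 to 5 tags to 71.1% against 81% with 50 or more tags in replicate 1.

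A same-strand peak that overlaps an intron-only peak shares intron bases with it, so an intronic partner is largely set by the overlap rule. Of the 707 and 667 members with a partner, 93.9% and 97.2% overlapped a peak that was itself wholly inside introns. A peak crossing intron and exon was overlapped by 6.93% and 3.3%. The partners wholly inside introns gave 688 overlapping pairs in 333 genes, from 664 replicate 1 and 648 replicate 2 members. In 435 pairs (63.2%) the overlap covered at least 50% of both peaks. The summits lay a median of 59 nt apart (quartiles 16 and 184 nt), and in 198 pairs (28.8%) they were within 20 nt.

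Tags of the pairs ran together between the libraries. Across the 688 pairs Spearman's rho was 0.77 and Pearson's r on log2 tags 0.773, given as a description across peaks of the same 2 libraries, which are not independent replicates. Replicate 2 had more tags in 512 pairs, replicate 1 in 123, and 53 were equal; replicate 2 also had more tags over all peaks. The median pair had 13 tags in replicate 1 and 19 in replicate 2, and 184 pairs had 20 or more in both.

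**Figure D2:**
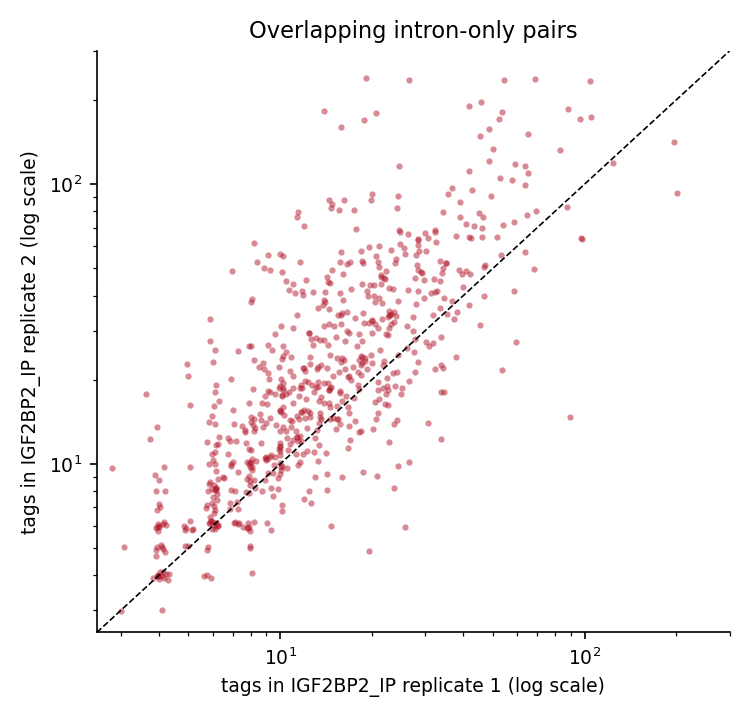
Tags of the 688 overlapping pairs of intron-only peaks in replicate 1 (x axis) and replicate 2 (y axis), both on log scales with a small seeded jitter; the dashed line marks equal tags. Most points, 512 of 688, lie above the line.

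Within introns, the peaks crowded towards the 5′ end. Each member was placed in the intron of its gene's principal transcript, which could be done for 3839 of 4019 members in replicate 1 and 5721 of 6038 in replicate 2, and the intron was cut into 5 equal stretches. From the 5′ to the 3′ stretch they held 29.8%, 23.7%, 19.7%, 16.1% and 10.7% of members in replicate 1. In replicate 2 they held 29.6%, 24.6%, 19.2%, 15.6% and 11%. An even spread would give 20% each, and the share went down at each step in both libraries. Whether input RNA is spread the same way along introns was not tested.

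The slope was steepest in long introns. In introns of 50 kb or longer, the 5′ stretch held 38% (35.2 to 40.9) and the 3′ stretch 6.04% (4.73 to 7.58) of 1142 members in replicate 1, and 37.8% and 5.61% of 1855 members in replicate 2. In introns under 5 kb the values were 21.7% and 12.6% of 637 members, and 18.4% and 15.2% of 902, with no steady slope between. The same order was seen when 1 member, the strongest, was kept per intron (28.5% down to 11.9% in replicate 1 and 27.8% down to 13% in replicate 2). First introns showed it (32.6% down to 9.74% in replicate 1), as did later introns (28.2% down to 11.3%). The classes of intron length were chosen after the positions had been seen.

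**Figure D3:**
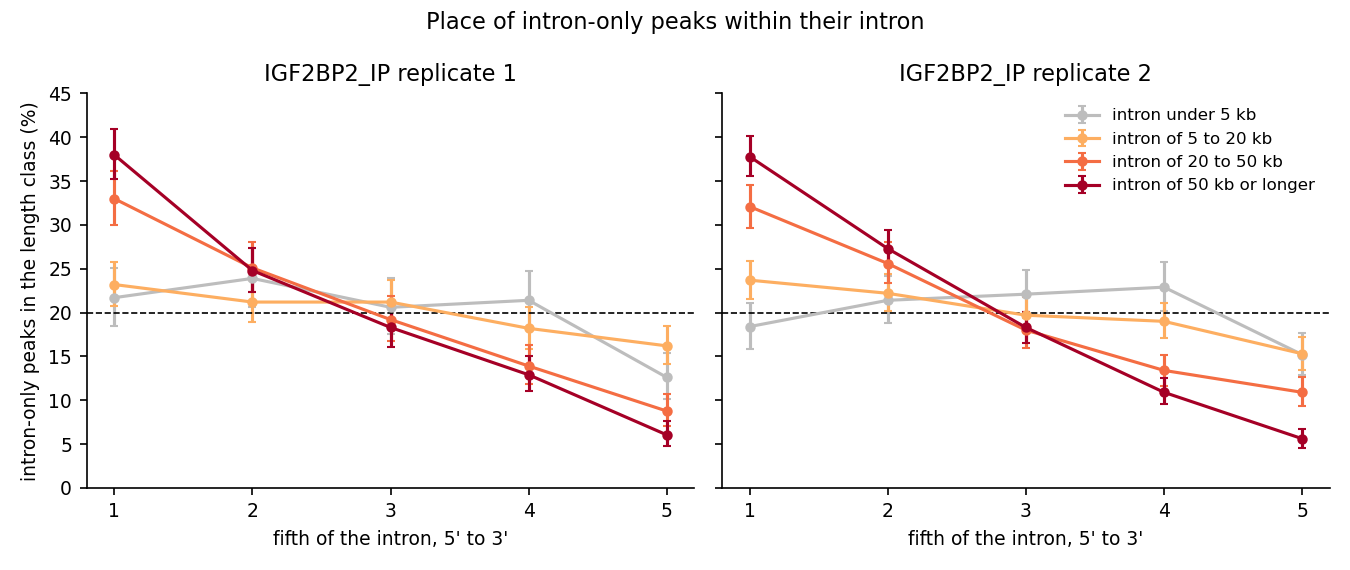
Share of intron-only peaks (percent, y axis) by the fifth of the intron that holds the peak, from 5′ to 3′ (x axis), for introns of 4 length classes in each IGF2BP2_IP library; bars are exact binomial 95% intervals and the dashed line is an even 20%. Introns of 50 kb or longer run from 38% to 6.04% in replicate 1 and from 37.8% to 5.61% in replicate 2, and introns under 5 kb stay near the line except in the last stretch.

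Most members lay in long introns. The median member sat in an intron of 24381 nt in replicate 1 and 27332 nt in replicate 2, and its nearer edge was 4187 and 4583 nt from an exon. Introns of 10 kb or longer held 69% and 71.4% of members, against 61.1% and 62.8% of the intron bases of the same genes. Introns under 1 kb held 1.56% and 1.29%, against 3.59% and 3.56% of the bases. The first intron held 36.6% and 36.4%, against 30.7% and 31% of the bases. The stretches next to exons held fewer midpoints at both ends, against 9.4% and 9.15% of the bases for each. The first 500 nt of introns held 7.06% and 5.89% of midpoints, and the last 500 nt 4.64% and 4.54%. Peaks that cross into an exon are left out by the rule. The shares next to exons and in introns under 1 kb are therefore lowered in part by the rule itself.

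Some introns carried many peaks. A member was found in 2536 introns in replicate 1 and 3395 in replicate 2, and 1025 were in both (40.4% and 30.2%). Of these introns, 77 and 155 held 5 or more members, 60 of them in both libraries. Over the 1025 introns the summed tags had a Spearman's rho of 0.736, as a description across introns of the same libraries.

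Intron 1 of Mitf, a transcription factor gene of the MiT family that acts on lysosomal genes, had the most intronic tags in both libraries. It is 133765 nt long and held 26 peaks with 791 tags in replicate 1 and 26 peaks with 1555 tags in replicate 2. All Mitf peaks in both libraries were intron-only, and 16 in each were overlapped by a peak of the other library. Single peaks had 14 to 52 tags (median 31) in replicate 1 and 21 to 181 (median 54) in replicate 2. They lay between 12.9 and 80.9 kb from the start of the transcript in replicate 1 and between 1.67 and 96.4 kb in replicate 2, and the remaining stretch up to exon 2, near 134 kb, held none.

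**Figure D4:**
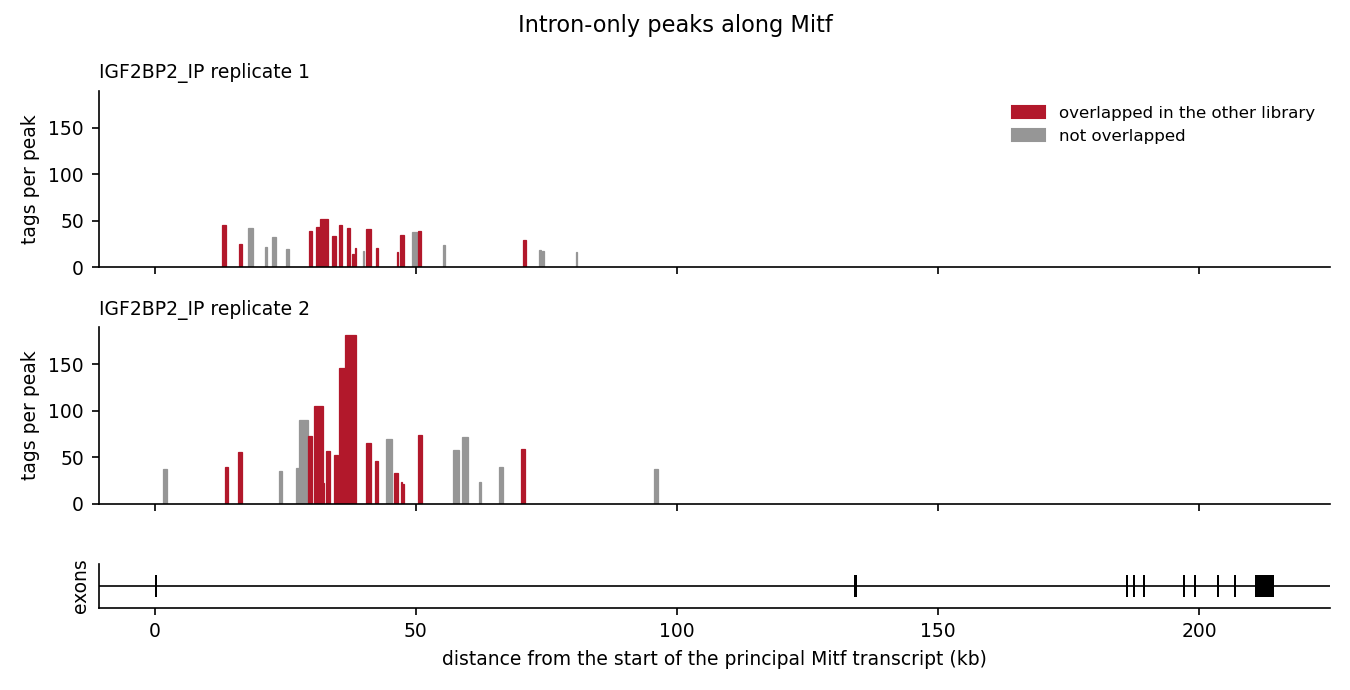
Tags per intron-only peak (y axis) along the principal Mitf transcript (x axis, kb from its start) in replicate 1 (top) and replicate 2 (middle), with the exons below; bar width is peak length, red bars are overlapped by a peak of the other library and grey bars are not. The peaks of both libraries lie in intron 1, within the first 96.4 kb.

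Several other introns held many peaks in both libraries. Intron 1 of Ptprj, the gene of a receptor tyrosine phosphatase, held 19 peaks with 577 tags and 28 peaks with 1456 tags. Intron 3 of Zeb2, a transcription factor gene of macrophages, held 15 and 17 peaks with 655 and 1236 tags. In Bcar3, a signalling adaptor gene, intron 3 held 27 and 39 peaks, which covered 25.1% and 50.8% of its 49834 nt. The short intron 5 of Atp6v0a1, the gene of a subunit of the lysosomal proton pump, was covered over 61.6% and 61.3% of its 5498 nt by 3 peaks in each library. In Lrmda, by contrast, intron 2 of 550520 nt held 23 peaks in replicate 1 and 66 in replicate 2, which covered 1.61% and 5.55% of it.

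Intron-only peaks were found in 2098 genes in replicate 1 and 2706 in replicate 2, and 1201 genes had one in both (57.2% and 44.4%). Among the 21951 protein-coding genes of the reference, 1151 had one in both libraries, which is 5.24%, and 308 had an overlapping pair, which is 1.4%. Of the 333 genes with a pair, 229 had 1, while 33 genes with 5 or more held 281 of the 688 pairs (40.8%). In 1168 genes (55.7%) of replicate 1 and 1342 (49.6%) of replicate 2 every peak was intron-only, and 403 genes were so in both. Of the 1201 genes, 220 (18.3%) also had a peak wholly in coding sequence in both libraries. They were long: the median total intron length was 78.1 kb, against 32.8 kb for genes with a coding-sequence peak in both. No RNA level was measured here, so a gene with more nuclear RNA and a gene bound more per RNA cannot be told apart, and nor can fewer cells of a type and less RNA per cell.

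Ranked by the tags of their strongest pair, 20 genes led, described here by the role of the protein. Atp6v0a1 came first, with 98 tags in replicate 1 and 237 in replicate 2 for the pair in intron 5; its summits lay 2385 nt apart. Lgals3, which encodes galectin-3, had 104 and 178 tags in intron 1 at chr14:47376909-47377900 and chr14:47376633-47377926. Fam20c, the gene of a Golgi kinase of secreted proteins, had 104 and 172 in intron 3, with summits 60 nt apart. These 3 came first by the mean of their ranks over the libraries, although by replicate 1 tags the Sirpa pair ranked above all 3 and by replicate 2 tags the Mtss1 pair ranked above Lgals3 and Fam20c.

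Receptors and signalling genes followed. Sirpa, the inhibitory receptor that binds CD47, had 200 tags in replicate 1 and 139 in replicate 2 in intron 1, and was 1 of the 2 named genes with a lead pair stronger in replicate 1. Ptprj had 50 and 133 tags, and Prkcd, the gene of protein kinase C delta, 49 and 167. Cblb, a ubiquitin ligase gene, had 66 and 117, and Iqgap1, a scaffold of actin and signalling proteins, 45 and 76. Dab2, a clathrin adaptor gene, had nearly equal tags, 85 and 84, with summits 11 nt apart.

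Mtss1, whose protein bends membranes and binds actin, had 69 and 236 tags in intron 3. Among transcription factor genes, Zeb2 had 88 and 138 tags, Mitf 46 and 146, Runx1 48 and 92, and Zmiz1, a coregulator gene, 57 and 73. Fam129b had 55 and 108 tags with summits 5 nt apart, and Cdk18, a kinase gene, 49 and 120 with summits 4 nt apart. In both genes the summits fell at nearly the same base in the 2 libraries.

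Dhrs3, a retinaldehyde reductase gene, had 61 and 82 tags, Coro7, a coronin gene, 43 and 96, and Bcar3 40 and 96. The remaining place was taken by a gene given by identifier only, whose peaks lie on Snora74a. In 9 of the 20 genes the pair lay in intron 1 of the principal transcript, while the gene given by identifier was not placed. This is near the share over all placed members with a partner, of which 42.1% and 42.4% lay in the first intron. Early introns were common among all members placed in an intron, whose median intron number was 2 in each library. By maximum height in place of tags, 13 of the 20 genes stayed among the first 20.

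**Figure D5:**
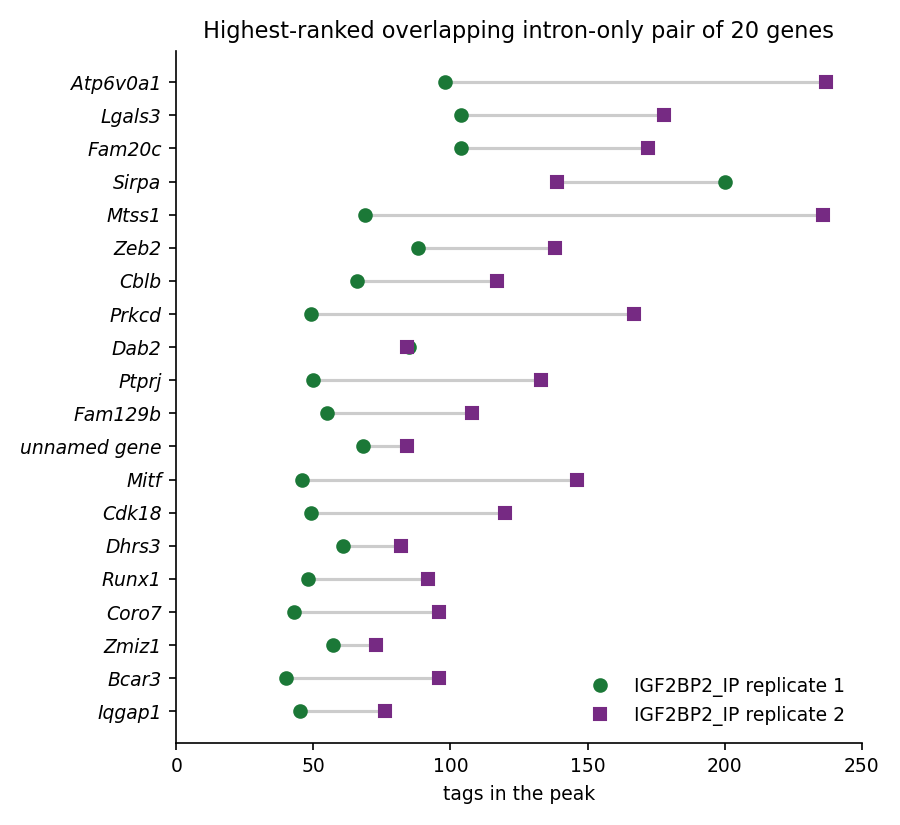
Tags (x axis) of the highest-ranked overlapping intron-only pair in each of 20 genes (y axis, in rank order from the top), with circles for replicate 1 and squares for replicate 2; the unnamed gene holds Snora74a. Replicate 2 has more tags in 18 of the 20 pairs, and Sirpa and Dab2 have fewer.

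Among all genes with a member, 55.7% in replicate 1 and 49.6% in replicate 2 had intron-only peaks alone. Of the 1201 genes with a member in both libraries, 403 had intron-only peaks alone in both. The share of all genes with over 50% of their tags in members in both libraries was not computed, so the following count has no like background. In 13 of the 20 leading genes the intron-only peaks held over 50% of the gene's tags in both libraries. They held all of the tags of Mitf, 87.5% and 89.2% of those of Mtss1, 88.8% and 84.7% of Zeb2 and 92.3% and 82.6% of Ptprj. The lowest shares were in Prkcd, at 13.6% and 31.5%, in Iqgap1, at 24% and 31.7%, and in Atp6v0a1, at 26.3% and 34.2%. Others lay between, such as Dab2 at 50% and 50.4%, Sirpa at 51.6% and 40.8% and Cdk18 at 68.4% and 68.1%.

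By number of pairs, Bcar3 led with 27, followed by 2010111I01Rik with 21, Gm20388 and Mitf with 19 each and Cblb with 11. The Gm20388 pairs lie inside other genes, as given above.

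Strong peaks without a partner also occurred. In replicate 1, 13 of 45 members with 50 or more tags had none, and in replicate 2, 68 of 165. The strongest in each library lay in Atp6v0a1: in intron 5 with 98 tags in replicate 1, at chr11:101025151-101026260, and in intron 19 with 542 tags in replicate 2, at chr11:101050365-101054480. This replicate 2 peak is 4116 nt long and covered 74.2% of its intron, in which replicate 1 had no intron-only peak. The strongest unpaired peaks thus fell in the gene that also had the highest-ranked pair. In intron 5 the unpaired replicate 1 peak starts just past the replicate 2 peak of that pair, which ends at 101025147. The peaks of that pair overlap by 317 nt, so pairing in this intron depends on where the peak edges were set.

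Of the gene products named by the series title, TSC1 and PPARγ, the second had intron-only peaks. Tsc1, an inhibitor of the kinase complex mTORC1, had none in either library. Pparg, the lipid-sensing nuclear receptor gene, had 3 in replicate 1, with 8, 13 and 10 tags, and 9 in replicate 2, with 7 to 22 tags. Of these, 1 pair overlapped, at chr6:115400029-115400526 in replicate 1 and chr6:115400349-115400750 in replicate 2, with 13 and 11 tags, in intron 2 of 56096 nt in the longest transcript. Igf2bp2 itself had none in replicate 1 and 2 in replicate 2, with 6 and 9 tags, in intron 2.

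The 14 gene lists are given as counts beside the 5.24% of all protein-coding genes with an intron-only peak in both libraries and the 30.8% of the 3739 genes that had a sense peak of any kind in both; no test was run on any list. Of 28 macrophage identity genes, 6 had an intron-only peak in both, and 4 had a pair: Lgals3, Sirpa, Mrc1 and Adgre1. Adgre1, which encodes F4/80, had 4 members with 45 tags and 6 members with 90 tags. Of 10 neutrophil, 12 lymphocyte, 7 erythroid and 10 fibroblast genes, none had one in both. With peaks of any kind in both libraries the counts were 18 for macrophage identity, 1 for neutrophils and 0 for the other 3 lists. Peaks of any kind in both libraries thus lay on 18 of the 28 macrophage identity genes and, in the other 4 lists, on Csf3r alone. In 1 library only, peaks also lay on the neutrophil genes Ltf and Mpo, the lymphocyte gene Cd3e and the fibroblast genes Col1a2 and Fbn1.

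Of 30 genes of PPARG signalling and alternative activation, 9 had intron-only peaks in both libraries and 22 had any peak in both. Genes with a pair included Abcg1, a cholesterol exporter gene (83 and 241 tags in members), Mrc1, the mannose receptor gene (89 and 196), and Cd36, a lipid scavenger receptor gene (48 and 85), as well as Pparg and Ncoa2. Arg1, Retnla and Lpl had none, though Arg1 had 6 peaks in each library.

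Of 40 genes of the TSC and mTORC1 pathway, 11 had intron-only peaks in both libraries and 25 had any peak in both. Pairs lay in Mitf, in Fnip2, a partner of folliculin (127 and 442 tags), and in Pik3r5, a regulatory subunit gene of PI3-kinase gamma (47 and 86). Tsc2, Rheb and Flcn had no intron-only peak. Of 32 genes of classical activation, 2 did in both, and 8 had any peak in both; Nfkb1, with 31 and 71 tags, held the pair printed above.

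Of 28 lysosome genes, 26 had a peak of any kind in both libraries and 3 an intron-only peak in both; Lamp2 (38 and 55 tags) and Glb1 (39 and 45) had a pair. Of the Glb1 members, 3 of 5 in replicate 1 and 2 of 4 in replicate 2 lay inside Tmppe, another gene on the strand. Of 28 actin and adhesion genes, 25 had any peak and 3 an intron-only one in both, and Iqgap1 alone among the 28 had pairs. Of 24 genes of the m6A machinery, 11 had any peak and 3 an intron-only one in both, with pairs in Ythdf3, a reader gene (34 and 46 tags), and Hnrnpc (10 and 15).

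Of 28 SR protein genes and others known for retained introns, 23 had any peak and 7 an intron-only one in both libraries. Pairs lay in Ogt, the O-GlcNAc transferase gene (15 and 47 tags), Luc7l2 (22 and 38) and Srsf10 (6 and 26). Of 30 snoRNA host genes, 17 had any peak and 3 an intron-only one in both: Snhg8 with Snora24 as above, Tnpo2 (11 and 25 tags) and Cct6a (20 and 17). Of 30 long genes expressed in macrophages, 24 had any peak and 15 an intron-only one in both. Beside Zeb2 and Runx1, Dock2, a Rac activator gene, had 14 members with 192 tags and 32 members with 556 tags, and Ahnak had 3 with 133 tags and 2 with 112. The share of genes with any peak that also had an intron-only one was thus 62.5% for the long genes and 11.5% for the lysosome genes.

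Sequence could be read for members lying inside an annotated exon of some transcript, 244 in replicate 1 and 375 in replicate 2, most of them in retained-intron transcripts; they are not a sample of all members. GGAC, searched on the transcribed strand, was present in 53.3% and 54.9% of them, at 3.6 and 3.61 per kb. Windows of the same length directly 5′ could be read for 186 and 290 members and held it in 44.6% and 45.9% (2.82 and 2.62 per kb). Those directly 3′ could be read for 172 and 291 members and held it in 52.3% and 45.4% (3.16 and 2.87 per kb). Both windows had to lie in the same exon as the member, so they do not cover all of these members. Coding-sequence peaks, which are shorter, could be read where they lay inside 1 exon, 1867 of 4483 and 2264 of 5901. Of these, 50.9% and 50.8% held GGAC, at 5.59 and 5.25 per kb. Windows of 100 nt around the summit could be read for 231 and 358 members and for 1194 and 1484 coding-sequence peaks. In these the shares were 28.6% and 28.2% for members, against 40.5% and 38.4% for coding-sequence peaks.

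TGGAC, which contains GGAC, was present in 16.4% and 23.7% of these members, against 22.5% and 23.1% of the coding-sequence peaks that could be read. ACACAC was present in 4.92% and 6.13%, against 2.62% and 3.18%; the windows 5′ of the members held it in 9.68% and 7.93%. The GC content was 48.1% and 47.6% in members, against 53.3% and 52.9% in coding-sequence peaks. A match is a run of letters and not a bound or methylated site.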

How the data were processed

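RNA immunoprecipitated with IGF2BP2 from mouse BMDMs was sequenced in 2 libraries, with 2 input libraries that were not analysed here. The tools TopHat2 and bcl2fastq and the build GRCm38 are listed by the submitters' processing notes; the peak caller, and whether input entered it, is not given in the sources used here. The deposited peak lists, 1 per library, give for each peak a tag count and, per the file headers, a maximum height, which is a signal of pile-up at the summit, with the peak's position, summit, region and gene. The lowest deposited count was 3 tags. Library totals are unknown, so no value was scaled by depth.

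Members are peaks with intron as their sole region over the whole length; 1 replicate 1 peak with a partial intron entry alone was left out. They and all gene lists were chosen with earlier results of these data known. Positions were set against GENCODE release 21 on the same build. Peaks overlapped if they shared at least 1 base on the same strand; bedtools 2.31.1 gave the same counts, 5404 and 5329 peaks. Shares carry exact binomial 95% intervals, and Fisher's exact tests were adjusted by Benjamini-Hochberg over 12 tests (scipy 1.17.1). The overlap step was tested on simulated intervals. Named genes were Tsc1, Pparg and Igf2bp2, the 20 highest by mean tag rank of their strongest pair, up to 4 per list with a pair, the 5 with most pairs, and the strongest peak of each library without a partner; 1 gene that the rule names is not reported here; Arg1 and others named as lacking peaks, the genes of nested or dense introns and those on small RNA genes were chosen after their values were seen. Sequence was planned from a genome; transcript sequences were used instead, so members outside annotated exons were not searched.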

Additional observations from a re-analysis of the deposited data

How the results depend on the processing

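The lower recurrence of intron-only than of coding-sequence peaks kept its direction and its call in all 10 alternatives over all tags (odds ratio 0.236 to 0.39) and its direction in all 48 within tag classes; the genes with a member in both libraries numbered 1295 by reference gene spans and those with a pair 268 at 50% overlap. The share of intron-only peaks was 32.9% and 35.4% in replicates 1 and 2 with intron as the main region, 25.1% and 25.7% by the reference, and 21.8% and 24.6% with at least 10 tags; pooled it was 26.5%, and 26.1% to 26.9% leaving out a replicate. The first 5′ stretch, 29.6% pooled, held 29.6% to 29.8% leaving out a replicate. With shared members alone it held 33.8% in each library, the last 9.67% and 9%, and the first intron 42.1% and 42.4%. With the strongest member per intron, added after seeing the data, the first held 27.8% in replicate 2 and the last 11.9% and 13%. By height 13 of the 20 named genes stayed. The difference in GGAC share between members and coding-sequence peaks, among those with readable sequence, was 2.39 and 4.14 percentage points. It reversed to -11.96 and -10.20 in windows of 100 nt. These windows take away the members' greater length, but fewer peaks could be read in them, so the set of peaks changed as well. No paired analysis was possible because the inputs, which share replicate numbers with the immunoprecipitates, were not analysed here. With 2 libraries, unknown depth and no input values, weak peaks limit what recurrence can show, and a peak that is missing from a library is not shown to be absent.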
